A study of Mus musculus with 50 samples.

Results

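Liver regions open only in young mice were 3482 of the 353652 regions obtained by merging the ATAC-seq peaks of 6 liver libraries. They were chosen by peak presence: a peak of each of the 3 young liver libraries, and of none of the 3 old liver libraries, shared at least 1 bp with the region. They made up 0.985% of all liver regions, and 1922 regions (0.543%) had the opposite pattern, with peaks in the 3 old and no young libraries. Young mice were untreated C57BL/6 at 2.5 months and old mice untreated C57BL/6 at 23 to 25 months, all female per the methods of the study. RNA-seq of liver and kidney (4 libraries per age and tissue) and ATAC-seq of kidney (3 per age) came from the same design, and liver RNA was also measured in mice of 20 to 21 months that received either the solvent DMSO or 3C, which the labels do not explain (4 libraries each). The labels do not tie libraries to animals, so the p-values measure the spread between these libraries.

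ATAC-seq maps open chromatin, where the Tn5 transposase can insert, mostly at promoters and enhancers. Promoters tend to be open in many cell types, whereas enhancers, often in introns or between genes, are open in the cells that use them. In hepatocytes, the main cell of the liver, enhancers are held open by factors such as HNF4A, FOXA, CEBP and ONECUT proteins, and by nuclear receptors that bind the letters AGGTCA. SPI1 (PU.1) does the same in macrophages.

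The liver ATAC-seq libraries held 123776 to 130409 peaks in young and 112125 to 136849 in old mice, so neither age had more peaks throughout. RNA libraries of young and old liver held 20168075 to 26676371 counts, those of DMSO and 3C livers 17034933 to 20386622 and those of kidney 14238228 to 43704147. The summed level of 11 kidney tubule markers in liver stayed at or below 0.524 CPM. That of 17 hepatocyte markers was at least 105233 CPM in every liver library of the age comparison. CPM are counts scaled to the library total multiplied by the library's TMM normalisation factor from edgeR. Old kidney RNA replicate 2 stood apart, with Alb (albumin, a hepatocyte product) at 2752 CPM against 10.2 to 47.5 CPM in the other 7 kidney libraries, so the count of lower kidney genes is also given without it, and the other kidney values include it.

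The sequences below show 7 of the regions, 201 bp each around the summit of the strongest peak, on the forward strand of GRCm38. The first pair had the highest mean fold enrichment, and the other 5 lay beside Socs2, Sort1, Il1rap and Adgrf1, whose liver RNA was lower in old mice. No set rule chose these 5, and each of them holds some of the letters searched for. Capitals mark the letters searched for: AGGTCA (nuclear receptor site), ATCAAT (ONECUT), TTGCNNAA (CEBP) and TTCNNNGAA (STAT5), on either strand.
Mccc2 upstream: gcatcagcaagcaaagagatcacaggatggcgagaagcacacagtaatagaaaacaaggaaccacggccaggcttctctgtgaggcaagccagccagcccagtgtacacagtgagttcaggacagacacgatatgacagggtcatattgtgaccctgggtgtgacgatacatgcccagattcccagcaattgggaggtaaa
Il1rl1 distal: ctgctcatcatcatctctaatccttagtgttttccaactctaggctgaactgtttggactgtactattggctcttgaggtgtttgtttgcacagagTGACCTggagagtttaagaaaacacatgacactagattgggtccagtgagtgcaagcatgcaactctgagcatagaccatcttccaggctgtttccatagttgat
Socs2 intron: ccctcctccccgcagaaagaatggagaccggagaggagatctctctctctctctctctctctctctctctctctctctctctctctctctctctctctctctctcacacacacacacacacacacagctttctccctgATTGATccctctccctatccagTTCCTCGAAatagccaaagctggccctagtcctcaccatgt
Sort1 intron: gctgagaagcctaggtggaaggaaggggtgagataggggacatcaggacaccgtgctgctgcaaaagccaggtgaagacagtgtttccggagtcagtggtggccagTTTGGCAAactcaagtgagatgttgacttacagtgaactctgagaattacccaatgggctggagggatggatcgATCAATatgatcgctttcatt
Il1rap upstream: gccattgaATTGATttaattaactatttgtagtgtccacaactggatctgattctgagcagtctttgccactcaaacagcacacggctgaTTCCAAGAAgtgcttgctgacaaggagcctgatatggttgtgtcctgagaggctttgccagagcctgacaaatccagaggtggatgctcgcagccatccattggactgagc
Il1rap intron: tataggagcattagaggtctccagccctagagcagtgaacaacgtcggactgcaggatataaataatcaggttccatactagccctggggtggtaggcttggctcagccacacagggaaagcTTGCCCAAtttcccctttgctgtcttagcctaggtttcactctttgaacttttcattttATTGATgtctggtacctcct
Adgrf1 intron: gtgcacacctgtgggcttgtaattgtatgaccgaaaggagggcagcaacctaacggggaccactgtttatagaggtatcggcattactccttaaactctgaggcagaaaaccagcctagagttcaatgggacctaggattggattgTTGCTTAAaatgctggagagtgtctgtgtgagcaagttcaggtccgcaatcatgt
The Mccc2 region (chr13:100025871-100026532) held none of the 16 motifs searched, and the Il1rl1 region (chr1:40388044-40388401) held 1 nuclear receptor site. The regions beside Socs2 (chr10:95398435-95399095), Sort1 (chr3:108336888-108337300) and Il1rap (chr16:26562605-26563472 and chr16:26603296-26603771) each held ATCAAT together with a STAT5 or CEBP match, and the Adgrf1 region (chr17:43279471-43280095) held a CEBP match. The regions beside Ugt2b1, Cyp4a31, Dio3os, Hsd3b5 and Mup20, whose liver RNA was also lower in old mice, held none of the 16 motifs. A match is a stretch of letters, not a measured binding site.

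Regions open only in young livers were weaker than those found in all 6 libraries and slightly stronger than liver regions in general. Fold enrichment, the height of a peak over the local background, had a median of 3.28, 3.01 and 3.07 in young libraries 1, 2 and 3, against 5.12, 4.46 and 4.61 in the 34822 regions with a peak in all 6 libraries and 3.01, 2.85 and 2.82 in all liver regions. The mean over the 3 libraries ran from 1.82 to 9.06, with quartiles of 2.75 and 3.73. In 833 regions (23.9%) at least 1 young peak had a q above 0.05, and in 407 (11.7%) each young peak had a −log10 q of at least 5. The regions were 213 to 1682 bp wide with a median of 457 bp (292 bp over all liver regions, 802 bp in those found in all 6 libraries). Old-only regions were alike, with a median width of 443 bp and median fold enrichments of 2.88, 2.86 and 3.04 in the 3 old libraries.

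At the edge of the rule, 5925 regions had a peak in 3 young and 1 old library. Their young peaks had a median fold enrichment of 3.42, close to the 3.17 of the regions open only in young, and the single old peak had a median of 2.86. Within the rule, the gap to the nearest old peak was 3 bp at the lowest and 2304 bp at the median, and in 91 regions (2.61%) it was under 100 bp. Regions on both sides of the rule were thus alike in the strength of their young peaks.

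The strongest region lay outside the gene, in an intron of another transcript 10.6 kb from the start of Mccc2, a subunit of methylcrotonyl-CoA carboxylase in leucine breakdown, with fold enrichments of 11.8, 8.15 and 7.23 in young libraries 1 to 3. The next was intergenic, 41.3 kb from Il1rl1, the receptor of interleukin 33, at 11.8, 4.91 and 6.17. The third lay within the span of Pappa2, the gene of a protease that cuts IGF binding proteins. It was in an exon of a non-coding transcript, 8.33 kb from a Pappa2 start, with fold enrichments of 8.24, 8.23 and 6.00. None of these 3 overlapped a peak in any of the 6 kidney libraries. The other regions among the top 6 lay nearest to Trim36 (8.08, 6.03 and 7.19), Ppp4r1l-ps (6.37, 5.40 and 9.30) and Spink14 (6.88, 5.69 and 8.17), and each of these overlapped at least 1 kidney peak. Liver RNA of Mccc2 overlapped between ages (80.8 to 84.5 CPM in young, 54.9 to 89.6 CPM in old), Il1rl1 had 3 counts in the young and 1 in the old libraries together, and Pappa2 had 0.

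Most of the regions were distal. An intron held 1667 (47.9%) and 1346 (38.7%) were intergenic, whereas 312 (8.96%) lay within 1 kb of a transcription start, the distance taken as a promoter. Promoters made up 37.2% of the regions found in all 6 libraries, 11.7% of the old-only regions and 9.58% of all liver regions. The median distance to the nearest start was 16.7 kb, against 17 kb in old-only regions and 5.99 kb in regions of all 6 libraries. Coding exons (1.01%), UTRs (1.44%) and other exons (2.07%) were minor places. By chromosome, leaving out Y with 0 of 15 regions, the share of liver regions that were open only in young ran from 0.744% on chromosome 3 to 1.64% on chromosome 19.

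**Figure D1:**
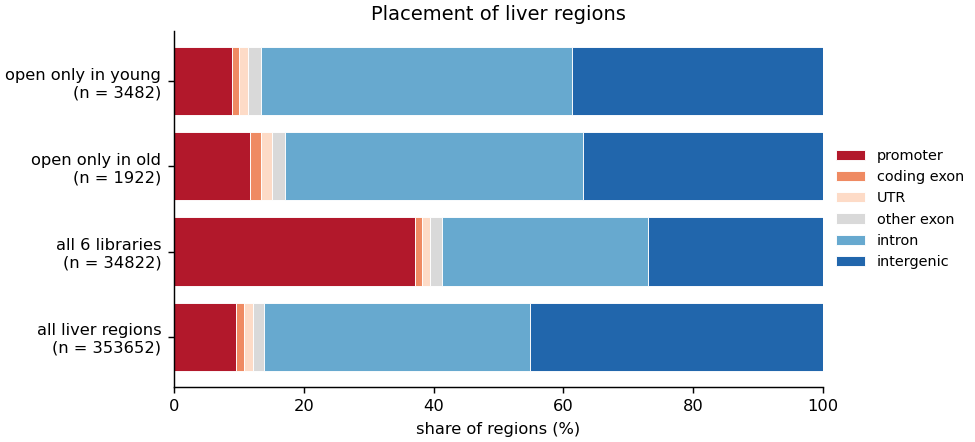
Share of regions (x axis, percent) by placement for the regions open only in young, open only in old, found in all 6 liver libraries, and all liver regions, with the number of regions in each bar's label. Promoters (within 1 kb of a start) take 8.96% of the regions open only in young and 37.2% of those in all 6 libraries.

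The letters of hepatocyte factors were common in the regions open only in young. Within 100 bp of the summit, ATCAAT (ONECUT) was found in 571 regions (16.4%), against 7.77% of all liver regions, 4.49% of those in all 6 libraries and 4.27% of old-only regions. AGGTCA was found in 25.8% (15.2% of all), TTGCNNAA (CEBP) in 14.2% (8.9%), TGTTTAC (FOXA) in 7.35% (3.24%) and CAAAGTCCA (HNF4A) in 2.18% (0.532%). Regions with a peak in 3 young and 1 old library were close for these 4, at 25%, 13.7%, 6.4% and 2.21%. These 4 were thus not particular to the regions open only in young. At least 1 of the 5 motifs was present in 53.2% of the regions and 48.3% of those with 3 young and 1 old library. The share was 31.3% in all liver regions and 28.8% in old-only regions. Among regions without any kidney peak it was 58.4%, beside 58% of the regions in all 6 liver libraries. Mean GC content was 47.5% in the regions, 47.9% in all and 50.5% in old-only regions.

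ATCAAT changed in steps with the number of old libraries that had a peak. It fell from 16.4% at 3 young and 0 old to 12.3%, 8.65% and 4.49% at 1, 2 and 3 old libraries, and stayed at 3.55%, 3.71% and 4.27% where young libraries dropped out instead. From 0 to 3 old libraries mean GC content rose, at 47.5%, 48.8%, 49.9% and 55.3%. Its part in the fall of these AT-rich letters was not tested. HNF4A letters showed no step at the first old library (2.18%, 2.21%, 1.80% and 0.704%). With promoters left out, ATCAAT was in 16.8% against 6.00% in regions of all 6 libraries and 4.42% in old-only regions. GAGGAAGT, the SPI1 letters, went the other way: 1.12% of the regions open only in young, 3.75% in all 6 libraries, and 9.12%, 8.19% and 8.64% where 2, 1 and 0 young libraries had a peak beside all 3 old ones. Of the 407 strongest regions open only in young, 22.6% held ATCAAT and 0.491%, or 2 regions, held GAGGAAGT. None of these regions had an old peak, so they show no order over old libraries. No test was made, since neighbouring regions and the peaks of a library are not independent.

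**Figure D2:**
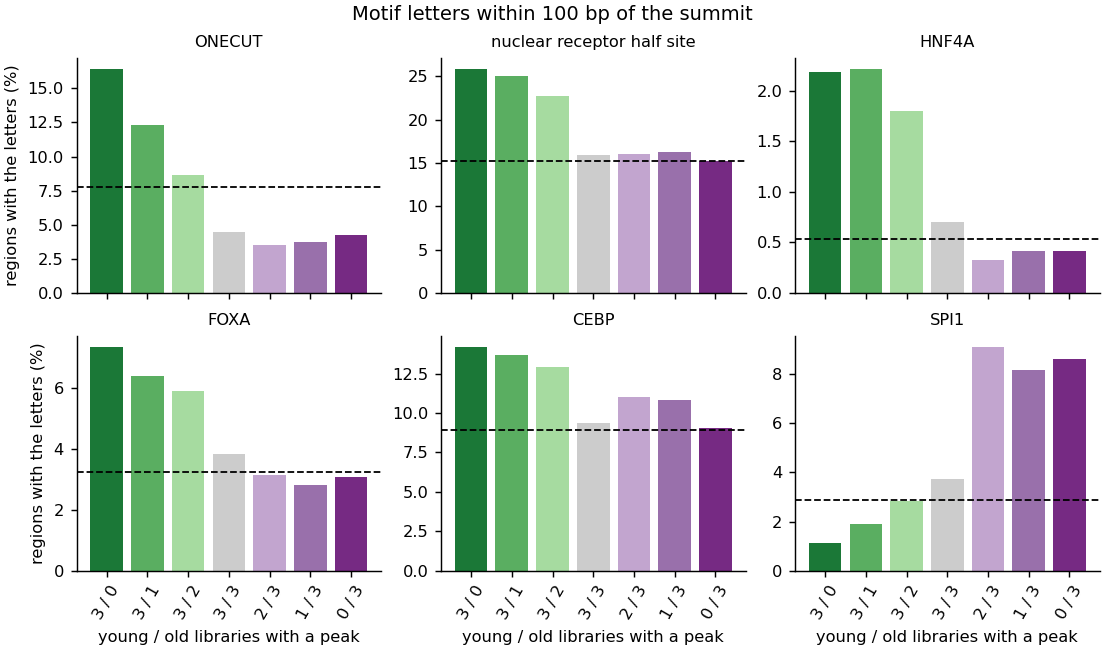
Share of regions (y axis, percent) with each motif's letters within 100 bp of the summit, by the number of young and old liver libraries with a peak (x axis); the dashed line is the share in all liver regions. ATCAAT (ONECUT) steps down from 16.4% to 4.49% as old libraries gain a peak, and GAGGAAGT (SPI1) is lowest, at 1.12%, in regions open only in young.

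The AP-1, STAT5, glucocorticoid receptor, E-box and CTCF letters stood close to the share in all liver regions. TGANTCA (AP-1) was in 8.18% of the regions against 7.18% of all and 10% of old-only regions, TTCNNNGAA (STAT5) in 6.32% against 5.85%, ACANNNTGT (glucocorticoid receptor) in 8.30% against 7.13%, and CACGTG (E-box) in 2.35% against 2.53%. The D-box TTATGTAA was in 1.03% (0.674% of all), CCGGAAGT (ETS) in 0.0862% (0.406%) and the CTCF letters in 7.18% (6.1%, and 19.3% of regions in all 6 libraries). The longer HNF1, DR1 (a pair of nuclear receptor sites) and NFI letters were rare. HNF1 was in 12 of the regions (0.345%, against 0.0523% of all and 0% of old-only regions), DR1 in 3 (0.0862% against 0.0421%) and NFI in 1 (0.0287% against 0.0226%). AGGTCA is part of the DR1 letters, so those matches overlap.

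Kidney peaks, which the rule did not use, covered fewer of the regions in old than in young mice. A kidney peak overlapped 31%, 30.1% and 27.6% of the regions in young kidney libraries 1 to 3, and 20.9%, 21.3% and 21.3% in old ones. The groups did not overlap. The mean went from 29.5% ± 1.76 to 21.2% ± 0.217 (SD, n = 3 per age), a difference of −8.38 percentage points (exact two-sided permutation p = 0.1, the smallest that 3 against 3 libraries can give). Old kidney libraries had fewer peaks in all (93072 to 108970, against 115836 to 128395 in young), and taking an equal number of the top peaks per kidney library made the difference −5.49 points (exact permutation p = 0.1, again the smallest possible).

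The same measure in other liver regions moved less. Old-only regions were covered at 32.4% ± 3.17 by young and 33.5% ± 4.32 by old kidney peaks (SD, n = 3 per age, exact permutation p = 0.7), and all liver regions at 20.7% ± 0.661 and 18.4% ± 1.26 (difference −2.30 points, exact permutation p = 0.1). Taken within each kidney library, the regions open only in young minus the old-only regions gave 0.99, −5.94 and −3.75 points in young and −12, −8.2 and −16.7 points in old kidney, which do not overlap (difference of means −9.42, exact permutation p = 0.1). In 55 regions (1.58%) a peak was present in all 3 young and no old kidney library, a pattern of 0.567% of all liver regions, and in 2 (0.0574%) the reverse held, against 0.195%. In old-only regions these counts were 20 and 28.

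**Figure D3:**
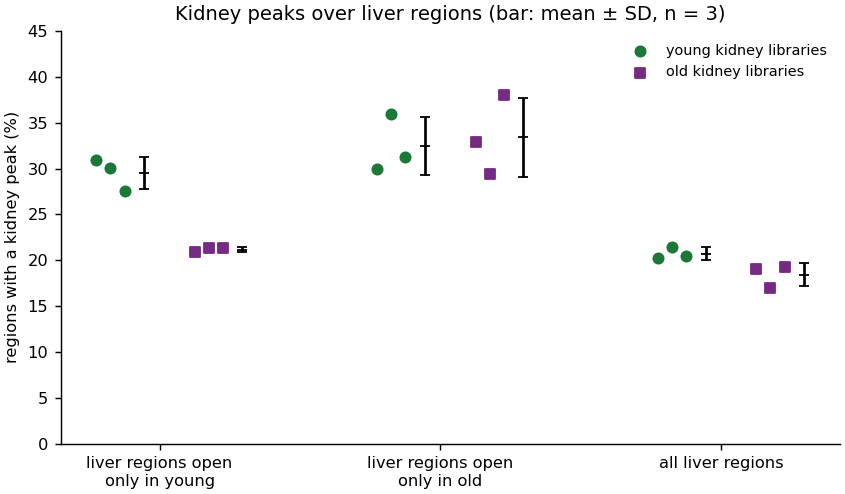
Share of liver regions (y axis, percent) that a kidney peak overlaps in each kidney library, for regions open only in young, open only in old, and all liver regions; points are libraries and bars the mean ± SD (n = 3). Over regions open only in young, the old kidney libraries sit at 20.9% to 21.3%, below the young ones at 27.6% to 31%.

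No kidney peak overlapped 1938 of the regions (55.7%, against 65.4% of all liver regions and 7.38% of those in all 6 liver libraries), and 383 (11%) had a peak in all 6 kidney libraries. The regions without a kidney peak held ATCAAT in 22.2% and those with one in 9.13%. All liver regions showed the same order, at 9.23% and 4.99%, and regions in all 6 liver libraries without a kidney peak held it in 15.1%. HNF4A letters had the opposite order, at 1.39% without and 3.17% with a kidney peak (HNF4A is also known in kidney tubules). All liver regions showed that order for HNF4A too, at 0.417% and 0.75%.

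The RNA of the genes beside these regions was then compared between old and young liver. In whole liver, fewer cells of a type and less RNA per cell cannot be told apart. A promoter gene had a start within 1 kb of a region, and a nearby gene had the nearest start within 50 kb. Of 318 promoter genes 235 passed the filter on low counts, and 5 of these (2.13%) were lower and 3 (1.28%) higher in old liver at an edgeR adjusted p under 0.05 and a fold above 2. Over all 12537 genes tested, 0.439% were lower and 1.69% higher. Of 2197 nearby genes 1586 were tested, with 17 (1.07%) lower and 18 (1.13%) higher. Their log2 fold changes had a median of −0.055 and were below 0 in 56.1%, against a median of 0.0035 and 49.6% for all genes. Leaving out 1 library moved these values. The calls over all genes moved with them. Without old replicate 1 the median was 0.0034 and 40 nearby genes were higher (2.87% of all genes), and without old replicates 2 and 3 in turn 11 and 10 were (0.98% and 0.599%). Without young replicates 1 to 4 in turn 6, 8, 5 and 9 were higher (0.463%, 0.512%, 0.376% and 0.823% of all genes) and 12, 10, 8 and 11 lower (0.275%, 0.268%, 0.219% and 0.29%), and the lower promoter genes numbered 2, 1, 1 and 3.

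Counted from the RNA side, 17 of the 55 genes lower in old liver (30.9%) had a nearby region open only in young, as did 18 of the 212 higher genes (8.49%) and 12.7% of all genes tested. Old-only regions lay near 0 of the 55 lower genes and 28 of the 212 higher ones (13.2%), against 7.32% of all. In the 12 alternative analyses of the RNA, the share of lower genes with a region open only in young ran from 25% to 34.3% and that of higher genes from 8.29% to 13.2%, and the former was the larger in all 12. Young and old CPM did not overlap in 54 of the 55 lower genes and 208 of the 212 higher ones, wherever they lay (3.91% of all tested genes were lower and 6.05% higher in every old than in every young library). Among genes with 1 region 10 of 1334 tested were lower and 17 higher, with 2 regions 5 of 207 and 1, and with 3 or more 2 of 45 and 0.

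Lower promoter genes included 2 enzymes. Ugt2b1, a glucuronosyltransferase, had 334, 456, 461 and 539.6 CPM in young and 169, 149, 94 and 195 CPM in old livers (replicates 1 to 4), without overlap. Its log2 fold change was −1.56 ± 0.25 (edgeR adjusted p = 0.012). For log2 fold changes, ± gives the absolute change divided by the square root of the edgeR F statistic. This approximates a standard error, which the fit does not itself give. The region of Ugt2b1 (chr5:86925757-86926136) had fold enrichments of 2.33, 2.10 and 3.51. Cyp4a31, a fatty acid hydroxylase, had 8.60, 9.85, 31.8 and 17.5 CPM in young and 7.56, 3.17, 2.54 and 1.97 CPM in old livers (log2 fold change −2.16 ± 0.50, edgeR adjusted p = 0.0483), a call lost in 9 of the 12 alternatives. Both belong to families of near-identical genes, between which reads can be misplaced.

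Pls1, which encodes the actin bundler plastin 1, had 1.97, 1.44, 2.12 and 0.833 CPM in young and 0.21 to 0.336 CPM in old livers (log2 fold change −2.49 ± 0.44, edgeR adjusted p = 0.0182), a call lost in 4 of the 12 alternatives. Its region (chr9:95845850-95846152) lay 690 bp from the start, held AGGTCA, and had a peak in all 3 young kidney libraries and in old kidney library 2 only. Dio3os, a non-coding RNA beside Dio3 (the enzyme that inactivates thyroid hormone), had 0.568 to 1.04 CPM in young and 0.048 to 0.193 CPM in old livers, or 65 and 12 counts in all (log2 fold change −2.58 ± 0.53, edgeR adjusted p = 0.0326), a call lost in 7 of the 12 alternatives. Regions at its promoter lay at chr12:110277920-110278254 and chr12:110278772-110279259, and Dio3 itself had 12 and 2 counts and was not tested. Counting ignored strand, so reads of overlapping transcripts cannot be told apart. The fifth lower promoter gene, Gm16551, was left out of the naming rule for its type of name and is named after its values were seen (log2 fold change −2.06, edgeR adjusted p = 0.0206).

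Higher promoter genes were Tiam2, A1bg and Saa1. Tiam2, an activator of the GTPase Rac, had 5.27 to 5.47 CPM in young and 19, 20.5, 11.5 and 16 CPM in old livers (log2 fold change 1.64 ± 0.21, edgeR adjusted p = 0.00356). A1bg, a plasma glycoprotein whose liver RNA depends on the pattern of growth hormone, had 153, 439, 965 and 54.5 CPM in young and 11664, 8329, 3280 and 5294 CPM in old livers (log2 fold change 4.15 ± 0.80, edgeR adjusted p = 0.0252), a call lost in 2 of the 12 alternatives. Saa1, an acute phase protein, had 26.9 to 53.9 CPM in young and 2697, 47, 9709 and 125 CPM in old livers, which overlapped (log2 fold change 6.31 ± 1.42, edgeR adjusted p = 0.0446). Without old replicate 3 it was 4.60 and not called, and the call was lost in 6 of the 12 alternatives in all. For these 3 genes a region open only in young lay at the promoter while the RNA was higher in old.

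Nearby genes that were lower in old liver included targets of growth hormone. Hsd3b5, a steroid dehydrogenase, had 10.7, 46.9, 58.9 and 25.9 CPM in young and 0, 0.132, 0 and 0.0771 CPM in old livers (log2 fold change −9.06 ± 0.75, edgeR adjusted p = 0.000295), with 3052 and 6 counts in all, and a region 13.9 kb from its start, in an intron of another transcript (chr3:98616160-98616617). Adgrf1, an adhesion receptor, had 11.2, 14.7, 7.76 and 6.40 CPM in young and 0, 0.198, 0.048 and 0.116 CPM in old livers (log2 fold change −6.55 ± 0.53, edgeR adjusted p = 0.000295). It had 3 regions: upstream, in an intron and in a coding exon.

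Socs2, which is induced by growth hormone through STAT5 and damps its signal, had 68.4, 118, 124 and 87.9 CPM in young and 19.7, 18.3, 14.4 and 7.90 CPM in old livers (log2 fold change −2.72 ± 0.30, edgeR adjusted p = 0.00153). The major urinary proteins Mup20 (53.5 to 141 CPM in young, 15.9 to 26.3 in old) and Mup3 (4040 to 8538 and 763 to 2021) fell by 2.19 and 2.04 on the log2 scale, with edgeR adjusted p of 0.00471 and 0.0184, and Mup3 lost the call in 2 of the 12 alternatives. Reads of Mup genes can be misplaced between near-identical copies. In each of these 5 genes the ages did not overlap.

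Other lower nearby genes act in sorting, adhesion and transport. Cdh1 (E-cadherin) had 31.5 to 45.1 CPM in young and 3.02 to 7.09 CPM in old livers (log2 fold change −3.02 ± 0.29, edgeR adjusted p = 0.00088) and 2 intronic regions. Sort1 (sortilin, a sorting receptor that acts on lipoprotein export) had 20.0, 14.5, 9.83 and 14.6 CPM in young and 2.78 to 3.51 CPM in old livers (log2 fold change −2.27 ± 0.24, edgeR adjusted p = 0.00139). The first of its 2 regions, chr3:108287767-108288258, had fold enrichments of 6.40, 5 and 6.98, was 3.92 kb from the start and held the FOXA letters. Slc25a30, a mitochondrial carrier, had 15.1 to 48 CPM in young and 5.99 to 8.68 CPM in old livers (log2 fold change −2.21 ± 0.33, edgeR adjusted p = 0.00852).

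The remaining lower nearby genes were Il1rap (log2 fold change −1.14) and, named after their values were seen, Fmo2 (a flavin monooxygenase, log2 fold change −1.23), Ces3a (a carboxylesterase, −1.70) and Serpina1e (an alpha-1 antitrypsin, −2.89), with edgeR adjusted p from 0.0275 to 0.0446. The last 3 each lost the call in 5 of the 12 alternatives. The ages did not overlap in any of the 17 lower genes, nor in 54 of all 55. Hepatocyte markers as a list gave 0 of 16 tested genes called and a median log2 fold change of −0.32, and their sum of 159060 to 239731 CPM in young overlapped the 105233 to 191574 CPM in old livers. Their part in these results was not tested.

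**Figure D4:**
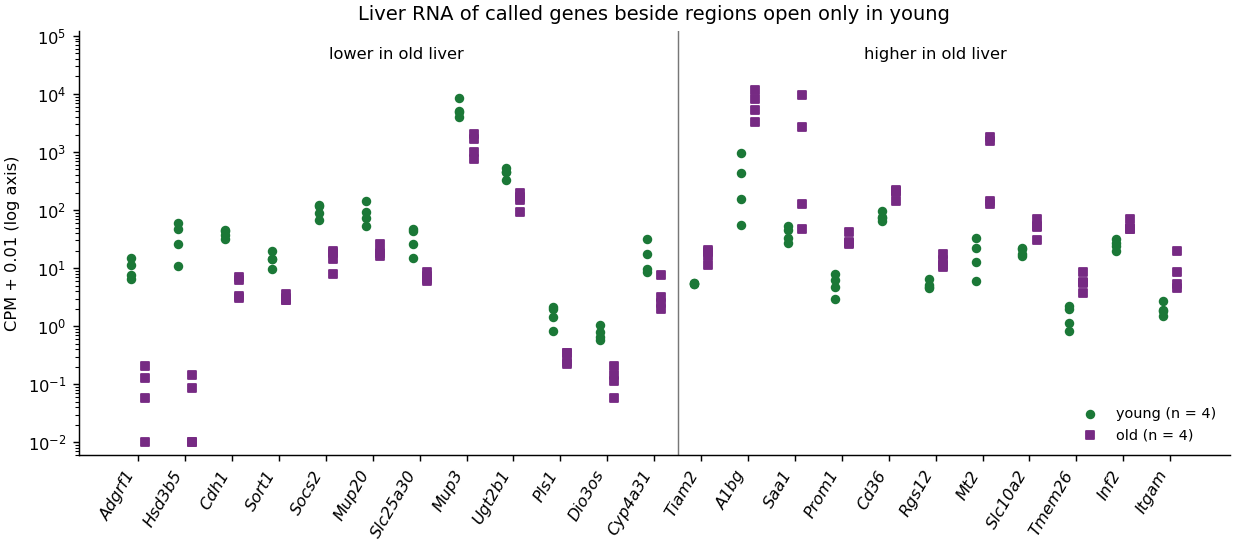
CPM plus 0.01 on a log axis for genes beside regions open only in young that were lower (left) or higher (right) in old liver; each point is 1 library (n = 4 per age). Adgrf1 and Hsd3b5 lie below 0.2 CPM in old livers, and Saa1 is the gene shown whose ages overlap.

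Of the nearby genes that were higher in old liver, Prom1 (prominin 1, a marker of cholangiocytes and progenitor cells) had 2.92 to 8.08 CPM in young and 26.3, 42, 27.7 and 27.1 CPM in old livers (log2 fold change 2.48 ± 0.30, edgeR adjusted p = 0.00279). It was the 1 gene called among 7 tested cholangiocyte markers, whose median log2 fold change was −0.33. Cd36, a fatty acid transporter, had 64.3 to 98.1 and 146 to 222 CPM (log2 fold change 1.32 ± 0.20, edgeR adjusted p = 0.00852). Slc10a2, the ileal bile acid transporter, had 16 to 22.5 and 30.4 to 70.9 CPM (log2 fold change 1.40 ± 0.25, edgeR adjusted p = 0.0177). Rgs12 (1.35), Tmem26 (1.96) and Inf2 (1.06, an actin nucleator) were higher too, with edgeR adjusted p from 0.012 to 0.0257. Slc10a2, Rgs12, Tmem26 and Inf2 lost the call in 3, 1, 4 and 5 of the 12 alternatives.

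Mt2, a metallothionein, had 6.12 to 33.3 CPM in young and 1522, 145, 1847 and 128 CPM in old livers (log2 fold change 5.62 ± 0.98, edgeR adjusted p = 0.0173), with the same 2 old libraries high as for Saa1. The overlapping gene Gm45774 covers 73.5% of its exons. Itgam, an integrin of macrophages and neutrophils, had 1.51 to 2.68 CPM in young and 5.41, 8.51, 19.9 and 4.59 CPM in old livers (log2 fold change 2.27 ± 0.45, edgeR adjusted p = 0.0288), and Gm49368 covers 68.7% of its exons. The calls of Mt2 and Itgam were lost in 4 and 5 of the 12 alternatives. Of 20 macrophage and Kupffer cell markers, all of which passed the filter, 8 were higher and 0 lower, and their sum was 889 to 1416 CPM in young and 1411 to 2915 CPM in old livers. Their part in the change of Itgam was not tested. The other higher nearby genes, named after their values were seen, were Arhgap26, Capg, Ccl6, Nnmt, Sh3kbp1, Smtnl2 and Sorl1, with log2 fold changes from 1.34 to 2.63 and edgeR adjusted p from 0.0298 to 0.0482. The ages overlapped in Saa1 and Sorl1, 2 of the 18 higher nearby genes, and in 4 of all 212.

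The genes with the most regions were mostly not called, as was true of all genes tested (0.439% lower and 1.69% higher). Dop1b, a membrane trafficking gene, had the most, with 5, of which 3 lay within 1 kb of one of its starts, and had 13.1 to 20.3 CPM in young and 11.5, 35.5, 48.3 and 40.0 CPM in old livers (log2 fold change 1.04, edgeR adjusted p = 0.18). Next came 12 genes with 4 regions each: Ate1, Erc2, Frmd4b, Il1rap, Mad1l1, Magi1, Pkp4, Rbpms, Relch, Smarca2, Tbc1d8 and Thada. Of these 13 genes Il1rap, the shared subunit of the interleukin 1 and interleukin 33 receptors, was the 1 called. It had 139, 128, 144 and 148 CPM in young and 39.5, 67.3, 48.1 and 97.8 CPM in old livers (log2 fold change −1.14 ± 0.26, edgeR adjusted p = 0.0446), a call lost in 8 of the 12 alternatives. None of its 4 regions overlapped a kidney peak.

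The share of genes beside a region varied between gene groups, and no enrichment test was made. Of tested genes, 12.7% had a region open only in young at the promoter or nearby, and 7.36% an old-only region. For hepatocyte markers it was 9 of 16 (56.2%: Alb, Apob, Fgb, Tat, Cps1, Cyp2e1, Pck1, Hnf4a and Ahsg) and 0 with an old-only region. The share was 14 of 36 (38.9%) for the growth hormone and IGF axis, 7 of 18 (38.9%) for core clock genes, 16 of 48 (33.3%) for glucose and amino acid metabolism and 16 of 50 (32%) for liver transcription factors. Old-only regions also lay beside more than 7.36% of the genes in 3 of these lists, at 18% for liver transcription factors, 16.7% for clock genes and 11.1% for the growth hormone and IGF axis. It was 23.8% for cholesterol and lipid synthesis, 23.3% for bile acid genes, 22.4% for UGT, GST and SULT enzymes, 20.4% for fatty acid oxidation, 19.1% for acute phase, complement and coagulation genes and 16.9% for cytochrome P450 genes.

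In the lists of other cells and of inflammation the counts were small. A region open only in young lay beside 1 of 35 AP-1 and ETS factors (2.86%) and an old-only region beside 7 (20.0%). The pairs were 2 and 3 of 20 for macrophage markers, 0 and 4 of 14 for liver endothelial markers, 0 and 1 of 12 for B, plasma and T cell markers, 1 and 0 of 15 for stellate cell and fibroblast markers and 1 and 0 of 7 for cholangiocyte markers. Of the genes the study text names, 4 of 11 for metabolism and 1 of 9 for inflammation had a region open only in young, but the study chose those on these samples. Zinc finger genes with names in Zfp were at 4.47%, Slc names at 13.6%, and lncRNAs at 9.06% against 12.8% of protein coding genes. Of 1127 olfactory receptor genes 3 had a region at the promoter, and of 338 vomeronasal receptor genes 0 did.

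**Figure D5:**
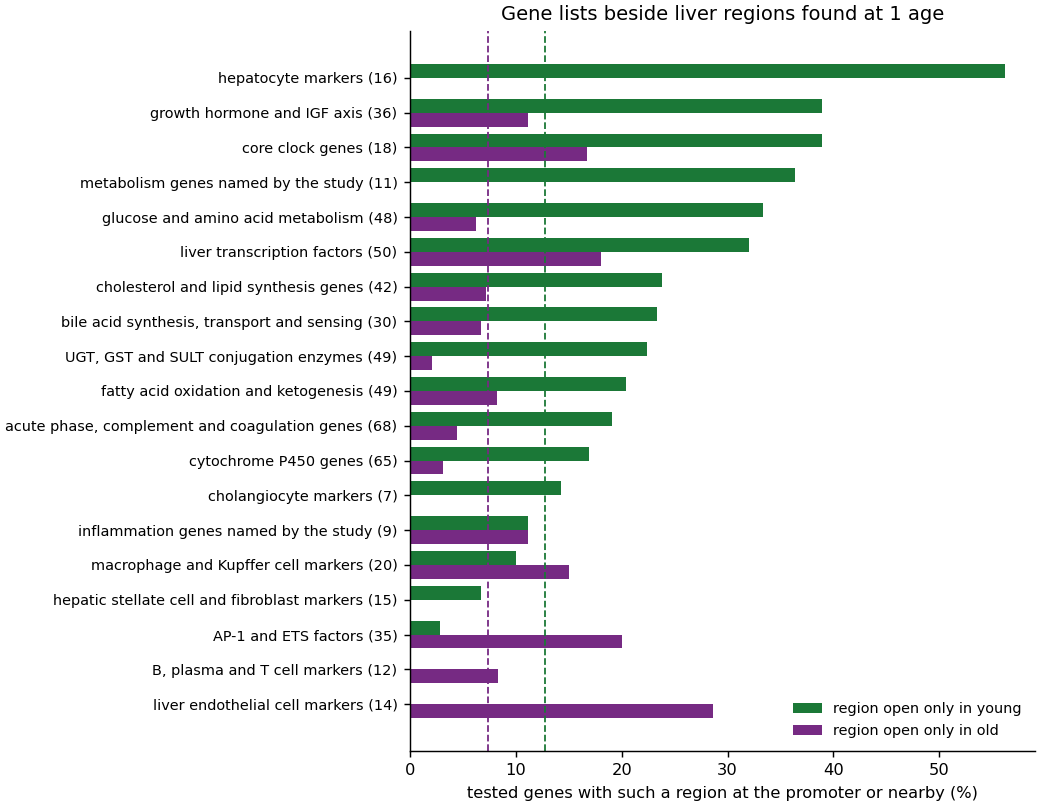
Share of tested genes (x axis, percent) with a region open only in young or only in old at the promoter or nearby, by gene list with the number of tested genes; dashed lines give the share over all tested genes (12.7% and 7.36%). Hepatocyte markers reach 56.2% for regions open only in young, and AP-1 and ETS factors 2.86%.

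The RNA of these lists differed in how many genes were called, where 0.439% of all genes were lower and 1.69% higher. Of the 36 tested growth hormone and IGF genes 7 were lower and 4 higher in old liver, and 5 of the 7 had a region open only in young (Adgrf1, Hsd3b5, Socs2, Mup20 and Mup3), as did A1bg of the 4. The receptor gene Ghr had a region at a promoter, 1 kb from a start, and 356 to 523 CPM in young against 259.8 to 948 CPM in old livers (log2 fold change 0.22, edgeR adjusted p = 0.887). Cish, a STAT5 target like Socs2, gave −1.16 (edgeR adjusted p = 0.218). In the P450 list of 65 tested genes 6 were lower and 3 higher, in the conjugation list 3 and 3, and in the lists of cholesterol synthesis, of glucose and amino acid metabolism and of clock genes 0 and 0.

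List genes with a region at the promoter mostly missed the thresholds, as did most genes tested. Acsm5 (an acyl-CoA synthetase, 102 to 155 CPM in young, 55.2 to 87.6 CPM in old, edgeR adjusted p = 0.0689) and Klkb1 (plasma kallikrein, log2 fold change −0.42) had ages that did not overlap. Cpt1a, the entry step of fatty acids into mitochondria, gave −0.59, Acadm −0.21 and Abcd2 −0.23. Sult3a1 gave −1.64, Cyp3a59 1.01, Nr5a2 0.14, Gnmt −0.27, Ftcd −0.21 and Ces1e 0.099. The acute phase genes Saa4 (1.68, edgeR adjusted p = 0.0621), Orm1 (1.60) and Fgb (0.87) were high in old replicates 1 and 3, as Saa1 was, and Marco, a macrophage receptor, gave 1.26. Apart from Saa1, none of the genes in this paragraph was called, though Saa4 was in 4 of the 12 alternatives and Sult3a1 and Orm1 in 1 each, with DESeq2.

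The hepatocyte factors whose letters were counted were not called, like most genes tested (0.439% lower and 1.69% higher over all). Onecut1, which had a region in a coding exon 23 kb from its start, had 10, 28.9, 9.12 and 2.19 CPM in young and 2.36, 3.53, 4.41 and 2.89 CPM in old livers. The groups overlapped (log2 fold change −1.93 ± 0.58, edgeR adjusted p = 0.124), and Gm20649 covers 52.8% of its exons. Onecut2 gave −0.30, Hnf4a −0.17, Cebpa −0.15, Foxa2 −0.066 and Foxa3 0.019. Foxa1 had 9.73 to 14.3 CPM in young and 4.10 to 8.86 CPM in old livers, which did not overlap (log2 fold change −0.84, edgeR adjusted p = 0.119). Nr3c1, the glucocorticoid receptor, had 3 regions and gave −0.13, and Spi1 gave 1.12 (edgeR adjusted p = 0.0838). Of 35 AP-1 and ETS factors tested 1 was higher, Junb, named after its value was seen (log2 fold change 1.66, edgeR adjusted p = 0.0425).

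In kidney, 1694 of the promoter and nearby genes were tested between ages, with 6 lower (0.354%) and 47 higher (2.77%). Over all 14495 genes 0.407% were lower and 5.68% higher. The median log2 fold change was −0.096 against 0.021 for all genes, and 60.3% were below 0 against 47.8%. The 6 lower genes were Pck1 (gluconeogenesis, −1.59), Corin (−1.58), Ces1e (−1.28), Akr1d1 (bile acid synthesis, −1.04), A1cf (RNA editing, −1.02) and Nynrin (−1.01). Without old kidney replicate 2 there were 57 lower genes among them (3.37%, against 2.32% of all genes), without young replicate 4 there were 17 (0.78% of all genes) and without young replicate 2 there were 3 (0.239%), so single libraries decided this count.

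Of the 17 nearby genes lower in old liver 12 were also tested in kidney, where 0 were lower and 1, Serpina1e, was higher at the same thresholds. Fmo2 missed only the fold limit there (log2 fold change −0.89, edgeR adjusted p = 0.00165). Of the 18 nearby genes higher in old liver 16 were tested in kidney, where 4 were higher, Mt2 and Itgam among them, and 0 lower. The age effect differed between liver and kidney (interaction, edgeR adjusted p under 0.05) in 1.72% of 15036 genes tested. It was compared in 27 of the called genes beside a region, which were chosen for a change in liver and so favour a difference from kidney, and it differed in 13, among them Hsd3b5 (−9.83 on the log2 scale, liver minus kidney, edgeR adjusted p = 7.97e-06), Adgrf1 (−7.41), Cdh1 (−2.71) and Sort1 (−1.93). In kidney the last 3 gave log2 fold changes of 0.89, −0.26 and −0.28.

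In livers given 3C, no gene differed from DMSO at the thresholds (0% lower and 0% higher of 13042 in edgeR, 436 with an unadjusted p under 0.05, and 2 higher in DESeq2). Of 1617 promoter and nearby genes 68 had an unadjusted p under 0.05. Their median log2 fold change was 0.045 against −0.0014 for all genes, and 38.4% were below 0 against 50.3%. Ccn1, a matrix protein, was the 1 gene beside a region that DESeq2 called (log2 fold change 1.06, DESeq2 adjusted p = 0.00785). Among the genes beside a region that were lower in old liver, the 3C effect went both ways, from −0.95 for Cdh1 to 0.89 for Slc25a30, both with an edgeR adjusted p of 1.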

How the data were processed

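The members, gene lists, motifs and comparisons were chosen with earlier results of these data known. The RNA-seq reads were cleaned (Trimmomatic 0.39) and mapped to mm10 (HISAT2 2.2.1), and the authors deposited whole-number counts per gene, made by HTSeq 0.12.4 without use of strand. For ATAC-seq the authors aligned with Bowtie2 2.3.5.1, kept uniquely mapped reads without duplicates, and deposited MACS2 peaks called in each library. Those files hold fold enrichment, a ratio over the local background, and, as deposited, −log10 p and −log10 q. Shallow peaks were included, with −log10 q down to 0.373. The methods of the study give a typical range of reads required per ATAC-seq library, but not the depth of each library. The submitters' processing notes name mm10, and no liver peak lay beyond the ends of the 21 GRCm38 chromosomes, so GRCm38 and GENCODE vM21 were used (24534 of 24984 gene names matched).

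Liver peaks were merged into regions in Python 3.11.15 (numpy 2.4.6, scipy 1.17.1, pandas 2.3.3, pysam 0.24.0, matplotlib 3.10.9). A library's value in a region was its highest peak. Motif letters were sought on both strands, up to 100 bp from each summit. Tally rows that name no gene, 13.1% to 28.8% of a library's reads, were left out. RNA counts were tested in edgeR 4.0.16 (R 4.3.3) by quasi-likelihood F tests with TMM factors and filterByExpr at a minimum count of 10, adjusted by Benjamini-Hochberg over all genes tested. Library totals limit the precision of low genes. On simulated counts with 200 genes changed by a fold of 4, 174, 187 and 193 were recovered in the liver age, kidney age and 3C comparisons, with 6, 6 and 11 false calls, and 100 of 100 simulated young-only regions were recovered. No pair of replicate RNA libraries was the same (lowest chi-square per degree of freedom 10.9).

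Genes were named by rule: the 6 strongest regions, up to 12 called promoter genes and up to 8 called nearby genes per direction by smallest p, the nearby genes with the most regions, and up to 4 promoter genes per list, with names of Gm and a digit or ending in Rik counted but not named in the called genes. Motif factors, growth hormone genes, the remaining lower and higher genes and genes of the strongest regions were added after their values were seen. The alternatives were a −log10 q of at least 5, equal numbers of top peaks, a peak over at least 50% of the region, other distances and windows, DESeq2 1.42.0, RLE size factors, no filter, no fold limit, the replicate number as a block, and each library left out in turn. Restriction to the 407 strongest regions was chosen after seeing the data. Fibroblast, kidney DMSO and kidney 3C libraries were not used.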

Additional observations from a re-analysis of the deposited data

Results flagged for a closer look

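Of 54 groups of 4 values checked for a library far from the rest, 2 had one, where chance gives about 1 in 20. They were Prom1 in old liver (the gap to the nearest value was 0.91 of the range, with 42 CPM in old replicate 2 against 26.3 to 27.7 CPM) and Inf2 in old liver (0.856, with 70.0 CPM in old replicate 3 against 46.3 to 49.7 CPM).

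The age effect differed between liver and kidney in 13 of 27 called genes beside a region that were compared, by the interaction test in edgeR with values adjusted over all genes. These genes were chosen for a change in liver, which favours such a difference. As liver minus kidney on the log2 scale, it was lower in liver for Hsd3b5 (−9.83, adjusted p = 7.97e-06), Adgrf1 (−7.41, 0.000809), Serpina1e (−5.68, 0.0074), Dio3os (−2.89, 0.0199), Cdh1 (−2.71, 0.00132), Pls1 (−2.20, 0.00416), Socs2 (−2.10, 0.0483) and Sort1 (−1.93, 0.00271). It was higher in liver for Prom1 (2.40, 0.00137), Slc10a2 (2.16, 0.00271), Tmem26 (1.75, 0.0292), Tiam2 (1.16, 0.0392) and Cd36 (1.14, 0.0338). Cdh1 and Pls1 stood at mean levels of 189 and 72.9 CPM in old kidney while their liver RNA was lower in old mice. The kidney value of Serpina1e includes old kidney replicate 2, the library with high Alb.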

How the results depend on the processing

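The number of regions was 4770 to 7454 when 1 ATAC-seq library was left out, since fewer libraries then set the rule, and 407 with a −log10 q of at least 5 in each young library. Applying that minimum to every peak before merging gave 2820 regions, of which 407 (14.4%) overlapped a region of the report. This is no separate check, since only the 407 regions with such a peak in each young library could overlap. The other regions of the report had a weaker peak in at least 1 young library, so their membership rests on weak peaks. The promoter share was 10.4% with that minimum, 11.1% with a peak over at least 50% of the region, 5.41% in the 407 regions, 25.1% within 5 kb, and 7.72% to 9.83% without 1 library. In the 407 regions the median fold enrichment was 4.52 and the ONECUT share 22.6%. Within 50 bp of the summit the ONECUT share was 10.1% and the HNF4A share 1.55%, since the window is smaller.

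Promoter genes lower in old liver numbered 1 in the 407 regions, 8 within 5 kb and 1 to 5 without 1 RNA library. Higher ones numbered 0, 6 and 1 to 6 in the same order, 7 with DESeq2 and 5 without a filter, and the promoter genes' median log2 fold change in the 407 regions was 0.041. Nearby genes lower numbered 9 with the −log10 q minimum, 3 in the 407 regions, 28 with DESeq2 (0.894% of all genes) and 8 to 21 without 1 library (0.219% to 0.622%). Those higher numbered 2 in the 407 regions, 9 within 10 kb, 46 with DESeq2 (3.86% of all genes) and 5 (without young replicate 3) to 40 (without old replicate 1) without 1 library (0.376% to 2.87%). Lower kidney genes numbered 17 with DESeq2, 10 with RLE and 3 to 57 without 1 library, the highest without old replicate 2. With 3C, DESeq2 called 1 higher. The causes were not tested. No called gene changed sign, though uncalled genes near 0 such as Ghr and Ces1e did. Of 27 called genes beside a region that were run under the alternatives, 11 kept their call in all 12 alternatives: Ugt2b1, Tiam2, Adgrf1, Hsd3b5, Cdh1, Sort1, Socs2, Mup20, Slc25a30, Prom1 and Cd36.

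Replicate numbers did not pair the libraries: same-numbered young and old livers correlated at −0.213, 0.334, 0.073 and −0.31 in their deviations. With the replicate block, lower promoter genes numbered 2 and higher nearby genes 10.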
